A study of Homo sapiens with 4 samples.

Results

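The 37 genes described here encode aminoacyl-tRNA synthetases, the enzymes that join each amino acid to its tRNA. They were chosen by name, as the rows of the deposited gene table that carry 1 of 37 synthetase symbols, out of 57815 genes in all, and each symbol was found exactly once. Of these genes, 21 encode cytosolic enzymes (AARS, CARS, DARS, EPRS, FARSA, FARSB, GARS, HARS, IARS, KARS, LARS, MARS, NARS, QARS, RARS, SARS, TARS, TARSL2, VARS, WARS and YARS) and 16 encode mitochondrial enzymes, whose symbols end in 2 (AARS2, CARS2, EARS2, FARS2, HARS2, IARS2, LARS2, MARS2, NARS2, PARS2, RARS2, SARS2, TARS2, VARS2, WARS2 and YARS2).

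RNA-Seq of untreated MDA-MB-231 cells, a triple-negative breast cancer cell line, was compared with RNA-Seq of untreated LM2-4175 cells (LM2 in the table), a line isolated from MDA-MB-231 that metastasizes to the lung. As LM2 was selected from MDA-MB-231, the comparison is between a parental line and 1 derived line, each with 2 of the 4 libraries. For each line the authors combined both libraries in 1 FPKM value (fragments scaled to transcript length and to the size of the library) with a lower and an upper bound, so no SD, no test and no p-value could be computed, and none of the differences has a replicate check. What the bounds cover is not stated in the sources used here, nor is whether the libraries came from separate cultures.

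Changes are log2 ratios of FPKM + 1, LM2 over MDA-MB-231, so that those of low genes come out too small. Calls required a change of 1.5-fold or more together with bounds that were apart, and were made among 13911 genes with a status of OK and a mean of at least 0.5 FPKM. Among all these genes, 4.67% were called higher and 4.61% lower, 45.5% had a higher value in LM2 by any amount, and the median log2 fold change was -0.04. Of 5 genes listed as present in mesenchymal-like carcinoma lines, all were well expressed in both lines. VIM and EGFR had a higher value in LM2 (1768 and 54.3 FPKM, against 1355 and 41.4 FPKM). CD44 had a lower one (355.0 against 469.7 FPKM). KRT8 and KRT18 of this list, keratin genes of epithelial cells, were called lower, from 625.7 to 180.2 FPKM and from 448.5 to 181.1 FPKM. Of the epithelial markers, CDH1 had 0.851 FPKM in the parental line and 0.366 FPKM in LM2 and was not called. EPCAM was called lower, from 12.3 to 4.93 FPKM. The hormone receptor genes ESR1 and PGR were under 0.05 FPKM in both lines, whereas ERBB2, the third gene listed as low or absent in triple-negative cells, had 34.95 FPKM in the parental line and 22.8 FPKM in LM2. PTPRC, which marks white blood cells, was under 0.1 FPKM, and 3 other white blood cell markers (CD3E, MS4A1 and NKG7) were at or near 0. CD14 and CD68 of the same marker list had 1.17 and 107.0 FPKM in the parental line, LM2 had 1.75 and 178.9 FPKM, and neither was called.

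Protein synthesis depends on these enzymes, since the ribosome reads the tRNA and not the amino acid attached to it. Cells keep separate sets for the cytosol and for the mitochondria, both encoded in the nucleus, and only GARS and KARS supply both compartments from the same gene. Several cytosolic enzymes sit together in the multi-synthetase complex, and many of the cytosolic genes are known targets of ATF4, a transcription factor that is translated when amino acids run short or the endoplasmic reticulum is stressed. ATF4 and its C/EBP partners bind a short DNA element, the C/EBP-ATF response element, in the promoters of such targets.

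That element was looked for first, as the letters TGATGNAA on either strand, from 250 bases before to 50 bases after the transcription start sites in the RefSeq promoter table, whose build is GRCh38.p14. Promoters were listed for 30 of the 37 genes, 39 promoters in all. All 39 were found letter for letter at 1 place beside their gene on GRCh37, the build equivalent to the hg19 of the authors. None was listed for DARS, LARS, YARS, TARSL2, VARS, AARS2 and VARS2, so these genes were not searched. A match was present in 8 of the 39 promoters, each of a different gene, against 3.62% of the 35116 promoters of the same length in the table. Of 10 synthetase genes with a promoter that are usually listed as ATF4 targets, 7 held the letters (AARS, CARS, GARS, IARS, MARS, NARS and TARS). None of 6 other cytosolic genes and 1 of 14 mitochondrial genes (YARS2) held them. As the list of ATF4 targets was written from general knowledge, in part gained by finding this element, the match and the list are not independent, and a match of letters is not a shown binding site.

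The stretches of 30 bases around the matches are printed 5′ to 3′ on the strand of the gene, with the element in capitals. They are shown because 6 of the 8 genes share the same 8 letters and most matches lie close to a RefSeq start of transcription.
AARS (chr16:70323578-70323607 of GRCh37, minus strand): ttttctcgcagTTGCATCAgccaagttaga
CARS (chr11:3078637-3078666, minus strand): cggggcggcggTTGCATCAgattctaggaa
IARS (chr9:95055974-95056003, minus strand): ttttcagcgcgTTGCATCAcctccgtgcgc
MARS (chr12:57881836-57881865, plus strand): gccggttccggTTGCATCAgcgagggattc
TARS (chr5:33441062-33441091, plus strand): gcgcctttcgaTTGCATCAgctggtccagc
NARS (chr18:55289036-55289065, minus strand): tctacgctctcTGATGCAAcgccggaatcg
GARS (chr7:30634450-30634479, plus strand): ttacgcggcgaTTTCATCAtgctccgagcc
YARS2 (chr12:32909010-32909039, minus strand): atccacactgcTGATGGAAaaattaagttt

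In CARS, MARS, AARS, IARS, TARS and NARS the letters are the same, read on opposite strands in NARS, whereas GARS and YARS2 each differ from them in the position that the motif leaves free. The element began 2 bases before the annotated start in CARS, 4 before it in MARS, 13 before it in IARS and 33 before it in GARS, which was the second of 2 listed starts of that gene. It began 2 bases after the first base of the transcript in TARS and 14 after it in NARS. In AARS and YARS2 it lay farther off, at 187 and 197 bases before the RefSeq start. The AARS stretch lies inside the GENCODE span of that gene, close to its upstream end at 70323610. The distance in CARS and TARS is to the first of 2 listed starts, and the promoter of the second held no match. For every gene with a match but YARS2, RefSeq places the start used here inside the longer span that GENCODE gives. The starts differ most in MARS and GARS. For the cytosolic genes with the highest log2 fold changes, CARS and MARS, the whole upstream stretch up to the end of the element is shown.
CARS (chr11:3078648-3078903 of GRCh37, minus strand): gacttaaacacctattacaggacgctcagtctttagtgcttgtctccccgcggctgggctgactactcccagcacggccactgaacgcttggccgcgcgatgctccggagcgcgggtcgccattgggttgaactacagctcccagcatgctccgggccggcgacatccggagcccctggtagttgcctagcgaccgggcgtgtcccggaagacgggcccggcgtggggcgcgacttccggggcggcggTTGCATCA
MARS (chr12:57881601-57881854 of GRCh37, plus strand): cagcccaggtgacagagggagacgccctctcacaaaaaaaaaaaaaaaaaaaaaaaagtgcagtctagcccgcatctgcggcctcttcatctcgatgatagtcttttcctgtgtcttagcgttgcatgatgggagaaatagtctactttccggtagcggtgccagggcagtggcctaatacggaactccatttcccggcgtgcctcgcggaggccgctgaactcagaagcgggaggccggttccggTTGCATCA

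The expression level of the synthetase genes was compared first. FPKM is scaled to length, so levels of different genes can be set side by side. Of the 37 genes, 35 passed the filter on low values. The 20 cytosolic genes that passed had a median of 68.8 FPKM in MDA-MB-231 and 71.7 FPKM in LM2, and the 15 mitochondrial genes had a median of 13.5 and 11.8 FPKM. The sets were nearly apart in level, with TARSL2 and IARS2 lying in the range of the other set. Without TARSL2, every cytosolic gene tested had at least 31.7 FPKM in MDA-MB-231 and at least 41.9 FPKM in LM2. Without IARS2, no mitochondrial gene was above 33.8 FPKM in MDA-MB-231 (CARS2) or above 29.5 FPKM in LM2 (CARS2). In MDA-MB-231, the value of CARS2 thus lay just above that of CARS, the lowest of these cytosolic genes, with overlapping bounds.

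The highest genes of the family were QARS and TARS, which charge glutamine and threonine tRNAs. The parental line had 190.6 FPKM of QARS, with bounds of 127.5 and 253.6, and LM2 had 186.6 FPKM, with bounds of 125.5 and 247.8. TARS had 179.7 FPKM (135.5 to 224.0) and 186.7 FPKM (140.9 to 232.5). These neighbours in the order of levels did not differ beyond their bounds in either line, and the order of their values was opposite in the cell lines. SARS, GARS and KARS, the genes for serine, glycine and lysine, followed by mean level. At the low end stood TARSL2, a second threonine enzyme encoded by a gene related to TARS, with 1.82 FPKM (1.05 to 2.59) in the parental line and 3.20 FPKM (1.84 to 4.57) in LM2. Among the mitochondrial genes IARS2, which serves isoleucine, was highest with 89.5 FPKM (68.6 to 110.4) and 64.6 FPKM (50.003 to 79.2), and PARS2, which serves proline, was lowest with 3.86 FPKM (2.71 to 5.00) and 3.75 FPKM (2.64 to 4.87). CARS2, TARS2, SARS2 and LARS2 came after IARS2, at 12.4 to 33.8 FPKM over both lines.

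**Figure D1:**
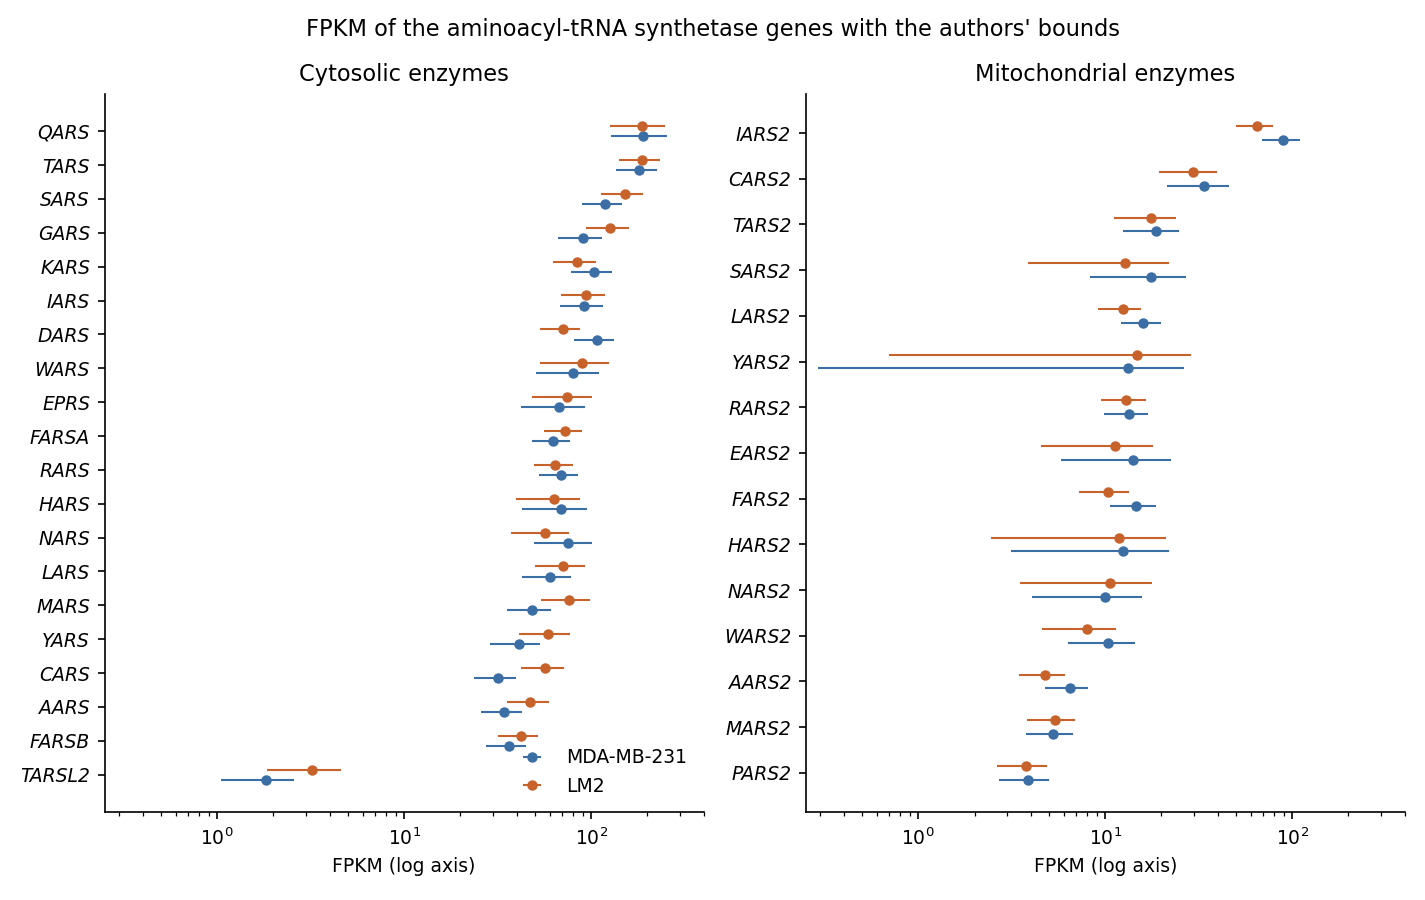
Points give the FPKM (log axis) of 20 cytosolic and 15 mitochondrial synthetase genes in MDA-MB-231 (blue) and LM2 (orange), with bars for the authors' lower and upper bounds and genes ordered by mean level. All cytosolic genes but TARSL2 lie above 30 FPKM in both lines, and all mitochondrial genes but IARS2 lie below 35 FPKM.

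VARS and VARS2, the cytosolic and mitochondrial valine enzymes, were listed at 0 in both cell lines with bounds of 0 and a status of OK. Since no cell makes protein without charged valine tRNA, a listed 0 here can be a failed estimate, and no change is given for these genes. They lie in the major histocompatibility region, VARS2 on chromosome 6 of GRCh37 from 30881982 to 30894236 and VARS from 31745295 to 31763529. Of 48 other protein-coding genes between them, 33 (68.8%) were listed at 0 in both lines, against 12.6% of 19403 protein-coding genes of the whole table. CSNK2B, which encodes a kinase subunit used by most cells, was at 0 there, as were TUBB and LSM2, which encode a tubulin and a splicing protein and lie outside this interval.

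Next, the change of each enzyme from MDA-MB-231 to LM2 was analysed, with cytosolic and mitochondrial genes kept apart. Of the cytosolic genes, LM2 had more of 14 and less of 6, with a median log2 fold change of 0.18 and a range of -0.60 to 0.82. Among the mitochondrial genes 3 had more and 12 had less in LM2, the median being -0.19 and a range of -0.47 to 0.14. The medians differed by 0.37 on the log2 scale. Of all genes tested, 45.5% had a higher value in LM2 by any amount. Only CARS was called, so 1 of 20 cytosolic and none of 15 mitochondrial genes passed the rule, while 9.27% of all genes tested were called in either direction. The share of 1 in 35 is below that background. By the fold of 1.5 alone, 2 cytosolic genes were higher (CARS and MARS), 1 was lower (DARS) and no mitochondrial gene passed, beside 10.3% higher, 11.8% lower and 22.1% in either direction over all genes. By the bounds alone CARS was again the 1 gene called, beside 4.74% higher, 4.64% lower and 9.39% in either direction.

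The bounds set what could be called. In MDA-MB-231 the median distance from the FPKM to its upper bound was 26.0% of the FPKM for the cytosolic genes and 33.2% for the mitochondrial genes. For a rise in LM2, a gene with bounds of its own width needed a median ratio of 1.71 or 2.09 before they separated. The smallest ratio needed was 1.59, in FARSA and IARS2, and for each gene a rise under its own ratio was not detectable in these values. The ratio needed for a fall was not computed, and it differs where the widths differ between the lines. Bounds were widest for YARS2, at up to 97.8% of the FPKM, so that its 13.3 FPKM (0.292 to 26.3) in the parental line and 14.8 FPKM (0.699 to 28.9) in LM2 say little about a change.

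CARS, which charges cysteine tRNA and lies on chromosome 11 (3022152 to 3078843 on the minus strand), is the gene that rose, from 31.7 FPKM (23.6 to 39.8) to 56.9 FPKM (42.2 to 71.6). LM2 thus had 1.79 times the parental level, or 0.82 more on the log2 scale. Its upper bound in MDA-MB-231 and its lower bound in LM2 were only just apart, and with a fold threshold of 2 it was not called. MARS, the methionine enzyme that also starts every cytosolic protein, came next with 48.2 FPKM (35.3 to 61.1) and 75.9 FPKM (53.7 to 98.1). Its log2 fold change of 0.64 passed the fold, but the bounds overlap. MARS lies on chromosome 12 from 57869228 to 57911352, and 12.4% of its exon bases also lie in exons of ARHGAP9 and the stress gene DDIT3, which run antisense. The library kit does not mark strand, so fragments of MARS and of these genes cannot be told apart there by strand.

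YARS, the tyrosine enzyme, had 40.9 FPKM (28.6 to 53.3) in the parental line and 59.0 FPKM (41.1 to 76.9) in LM2. GARS had 90.9 FPKM (66.9 to 114.9) and 126.8 FPKM (93.8 to 159.7). AARS, which charges alanine tRNA, had 34.3 FPKM (25.6 to 43.0) and 47.3 FPKM (35.4 to 59.3). These 3 genes were 1.38 to 1.44 times higher in LM2, under the fold of 1.5, with overlapping bounds. For SARS the values were 118.1 FPKM (89.1 to 147.1) and 151.3 FPKM (112.9 to 189.8), a ratio of 1.28. TARSL2, at the bottom of the level range, had a log2 fold change of 0.58 and a ratio of 1.76, since the pseudocount weighs on low genes.

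The opposite direction was led by DARS, which charges aspartate tRNA in the multi-synthetase complex. It had 107.1 FPKM (81.3 to 133.0) in the parental line and 70.4 FPKM (53.4 to 87.3) in LM2. This is a log2 fold change of -0.60 with bounds that overlap by a small margin. NARS, the asparagine enzyme, had 75.2 FPKM (49.2 to 101.3) and 56.8 FPKM (37.1 to 76.4). KARS had 103.8 FPKM (77.7 to 129.9) and 84.2 FPKM (62.6 to 105.8), and so the genes for the compartment-sharing enzymes, KARS and GARS, had opposite directions, at -0.30 and 0.48 on the log2 scale. The remaining cytosolic genes were close to level. FARSA and FARSB, which encode the subunits of 1 phenylalanine enzyme, both had a log2 fold change of 0.20, with 62.8 and 36.3 FPKM in MDA-MB-231 and 72.3 and 41.9 FPKM in LM2. LARS (0.23), EPRS (0.15), WARS (0.15), TARS (0.05) and IARS (0.03) were slightly higher on the log2 scale, and QARS (-0.03), RARS (-0.09) and HARS (-0.12) slightly lower.

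**Figure D2:**
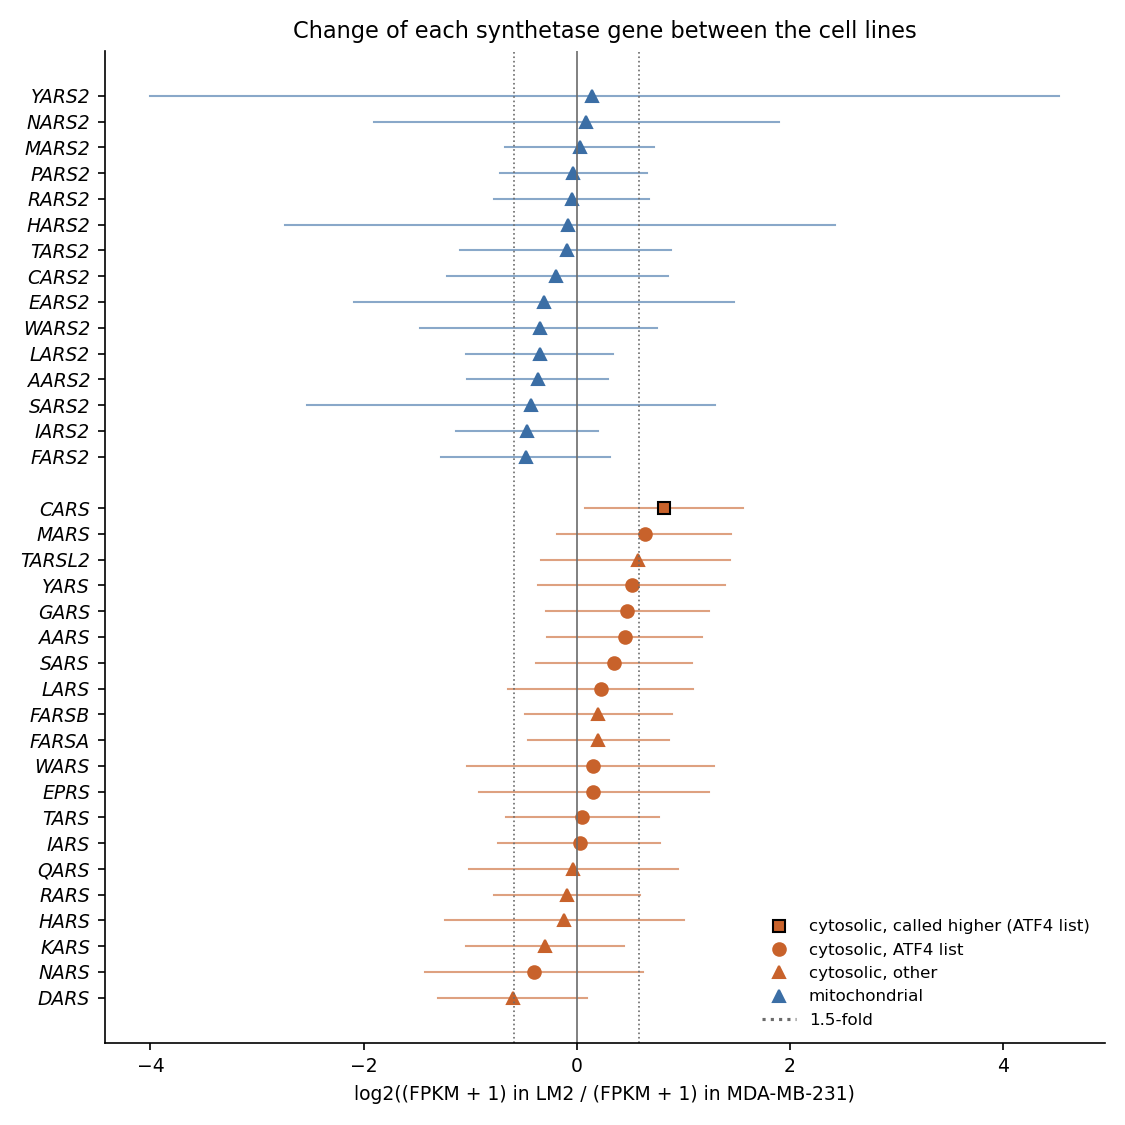
The x axis gives the log2 fold change of FPKM + 1 from MDA-MB-231 to LM2 for each synthetase gene, and lines reach from the lowest to the highest change that the authors' bounds allow. Dotted lines mark 1.5-fold, circles and the square (CARS, called higher) mark the genes of the ATF4 list, and triangles the others. The line of CARS alone stays clear of 0.

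No mitochondrial enzyme was called. FARS2, the phenylalanine enzyme, had the lowest change, with 14.7 FPKM (10.6 to 18.8) in the parental line and 10.3 FPKM (7.21 to 13.4) in LM2, or -0.47 on the log2 scale. IARS2 followed with -0.46. SARS2, the serine enzyme, had 17.6 FPKM (8.28 to 27.0) and 12.8 FPKM (3.85 to 21.8), and 48.2% of its exon bases are shared with a readthrough gene on the same strand, so fragments could be divided between them. AARS2, for alanine, had 6.45 FPKM (4.77 to 8.13) and 4.78 FPKM (3.48 to 6.08). LARS2, for leucine, had 16.0 FPKM (12.1 to 19.9) and 12.4 FPKM (9.14 to 15.6). All 5 were 0.70 to 0.77 times as high in LM2, and all had overlapping bounds. WARS2, for tryptophan, had 10.4 and 7.998 FPKM, EARS2, for glutamate, 14.2 and 11.3 FPKM, and CARS2 33.8 and 29.5 FPKM. Changes of less than 0.1 in size on the log2 scale were found in TARS2 (-0.09), HARS2 (-0.08), RARS2 (-0.05), PARS2 (-0.03), MARS2 (0.03) and NARS2 (0.09). YARS2, with the widest bounds, had the highest change of the mitochondrial set, 0.14. Of its exon bases, 18.1% also belong to an antisense gene.

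Setting the cytosolic and the mitochondrial enzyme of the same amino acid side by side gave 16 pairings, in which EPRS serves both glutamate and proline, and FARS2 was paired with both subunits of the cytosolic enzyme. In 13 of the 16 the cytosolic gene had the higher log2 fold change, by a median of 0.49 over all 16. The widest gap was that of cysteine, where CARS (0.82) and CARS2 (-0.19) differed by 1.01, and alanine (0.82) and serine (0.78) followed. The exceptions were arginine and histidine, with a difference of -0.04 and -0.05, and asparagine, where NARS (-0.40) was below NARS2 (0.09). In level, CARS2 was the only mitochondrial gene with a value above its cytosolic counterpart, in MDA-MB-231, where the ratio of CARS to CARS2 was 0.937. The bounds of CARS there (23.6 to 39.8) lay inside those of CARS2 (21.4 to 46.2), so these genes cannot be ranked in that line. In LM2 the ratio was 1.93, and the bounds of CARS (42.2 to 71.6) and CARS2 (19.3 to 39.7) were apart. The ratio of IARS to IARS2 in MDA-MB-231 was 1.03, also with overlapping bounds. The cytosolic gene stood at a median of 5.21 times its counterpart in MDA-MB-231 and 6.18 times in LM2. Summed over the genes tested, the cytosolic genes had 1559 FPKM in MDA-MB-231 and 1676 FPKM in LM2, and the mitochondrial genes 279.7 and 230.6 FPKM.

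**Figure D3:**
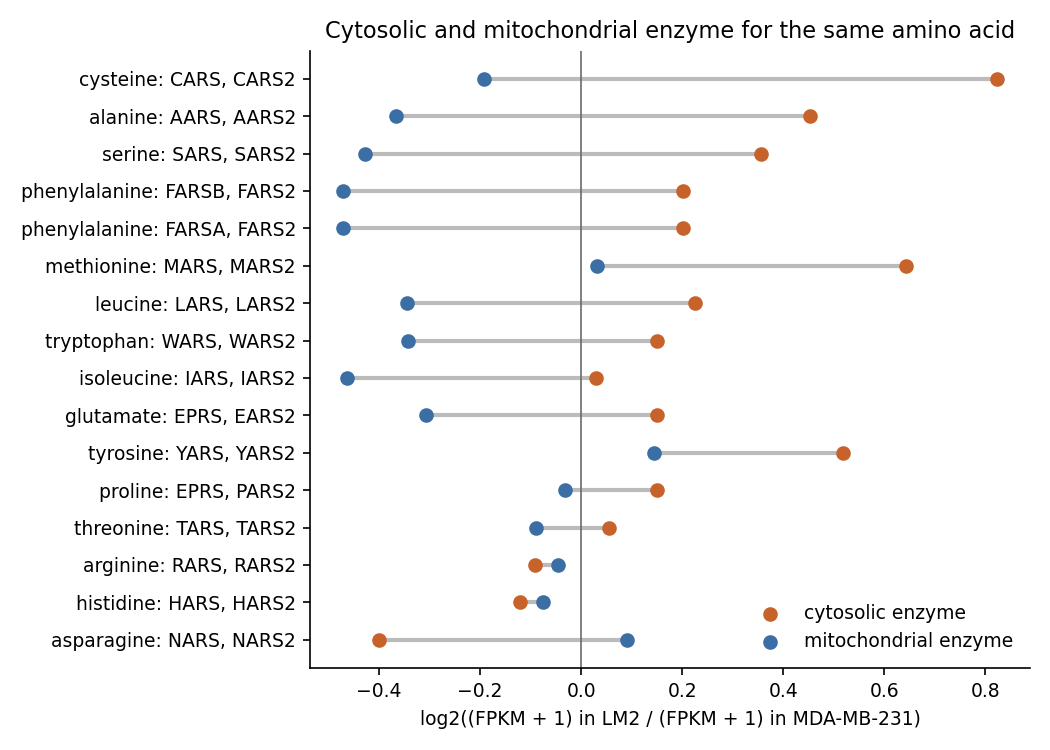
Each row is an amino acid, with the log2 fold change of FPKM + 1 from MDA-MB-231 to LM2 on the x axis for its cytosolic (orange) and mitochondrial (blue) enzyme. The cytosolic point lies to the right in 13 of 16 rows, and asparagine, with NARS at -0.40, shows the clearest opposite order.

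The cytosolic genes were then described by the lists they belong to. The 12 genes usually listed as ATF4 targets (AARS, CARS, EPRS, GARS, IARS, LARS, MARS, NARS, SARS, TARS, WARS and YARS) were higher in LM2 in 11 cases, with a median log2 fold change of 0.29, and 1 of them was called. NARS was the exception. Of all genes tested, 45.5% had a higher value in LM2 by any amount and 4.67% were called higher. The other 8 cytosolic genes tested had a median of -0.06, with 3 higher (FARSA, FARSB and TARSL2) and 5 lower, and none was called. That median turned positive, at 0.02 and 0.08, when the FPKM of the cell lines were scaled to the same sum or quantile normalized, while 11 of the 12 genes of the ATF4 list stayed higher under both. No test was run between these lists, since genes are not replicates and the lists were chosen with results of these data known. Among the 7 genes of the ATF4 list that hold the element, changes covered a wide range. CARS (0.82) and MARS (0.64) were highest of these, followed by GARS (0.48) and AARS (0.45). TARS (0.05) and IARS (0.03) hold the same letters as CARS and were almost level, and NARS (-0.40), which also holds them, was lower. The element began within 14 bases of a RefSeq start in CARS, MARS, IARS, TARS and NARS. It began 33 bases before the start in GARS and 187 before it in AARS. SARS (0.36), WARS (0.15) and EPRS (0.15) were searched and had no match, and YARS and LARS were not searched. A link between the element and the change was not tested.

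The RNA of ATF4 itself rose from 162.5 FPKM (125.5 to 199.5) to 278.5 FPKM (215.2 to 341.7) and was called higher. ATF4 protein and its activity were not measured here. Of 22 genes in a list of ATF4 and targets of ATF4 outside the synthetases, 14 were higher in LM2 and 8 lower. Among them 5 were called higher and 1 lower, the median log2 fold change being 0.28. Of all genes tested, 4.67% were called higher and 4.61% lower. The 5 genes called higher were ATF4, ASNS, PSAT1, PHGDH and CEBPB, of which ASNS makes asparagine and PHGDH and PSAT1 serve the making of serine. PSPH, which also serves it, had a lower value in LM2 (12.2 against 19.3 FPKM) and was not called. ASNS rose from 12.8 to 22.4 FPKM. SLC7A5, which encodes a transporter of large neutral amino acids, was the gene called lower, from 113.1 to 53.9 FPKM, so the calls of the list were not all in 1 direction. WARS, the tryptophan enzyme, is also a known target of interferon gamma. It had 80.4 FPKM (50.7 to 110.1) in the parental line and 89.4 FPKM (53.6 to 125.1) in LM2, while all 10 interferon response genes tested had a lower FPKM in LM2 and 5 of them (GBP1, IFI27, IFIT1, ISG15 and MX1) were called lower. Of all genes tested, 4.61% were called lower. For WARS, 10.6% of the exon bases also belong to antisense genes.

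The genes were also divided by membership of the multi-synthetase complex and by the structural class of the enzyme, again with no test between the lists. The 8 enzyme genes of the complex (DARS, EPRS, IARS, KARS, LARS, MARS, QARS and RARS) showed a median of -0.00 on the log2 scale, with 4 higher and 4 lower, and the 12 cytosolic genes outside it had a median of 0.28 with 10 higher. The genes of its scaffold, AIMP1, AIMP2 and EEF1E1, were at -0.10, -0.16 and 0.05. Synthetases fall into class I and class II by the fold of their catalytic domain. In the cytosol 6 of 8 genes of class I and 7 of 11 of class II were higher, and in mitochondria 2 of 8 and 1 of 7 were, with EPRS, which joins a domain of each class, left out of both counts.

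Each gene was also set beside its chromosomal neighbours, the protein-coding genes tested within 3 Mb (7 to 128 genes). The clearest cases were TARSL2 and NARS. TARSL2 lies at the end of chromosome 15 (102193799 to 102264676), where all 15 neighbours were higher in LM2 and 7 were called higher, with a median of 1.20 against its own 0.58. NARS lies on chromosome 18 (55267888 to 55289445), where all 14 neighbours were lower and 6 were called lower, with a median of -0.69 against its own -0.40. AARS2 on chromosome 6 also lay among lower genes, with a median of -0.46 over 63 neighbours. TARS, on the short arm of chromosome 5, had a change of 0.05 while its 20 neighbours had a median of -0.34. For CARS (64 neighbours, median 0.00) and MARS (73 neighbours, median 0.08) the surroundings were close to level. DARS had 11 neighbours, of which 1 was higher, with a median of -0.22.

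With the median of the neighbours subtracted, which was added once the values had been looked at, all 12 genes of the ATF4 list were above their surroundings, with a median log2 difference of 0.37, NARS (0.29) among them. The cytosolic genes lay at a median of 0.23, with 14 above and 6 below. The mitochondrial genes divided into 7 above and 8 below, with a median of -0.071, nearer to 0 than in the values as deposited. IARS2 (-0.54), LARS2 (-0.40), WARS2 (-0.38) and EARS2 (-0.33) were then lowest in the mitochondrial set, and TARSL2 (-0.62), DARS (-0.38) and KARS (-0.37) in the cytosolic one. The number of gene copies was not measured here.

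**Figure D4:**
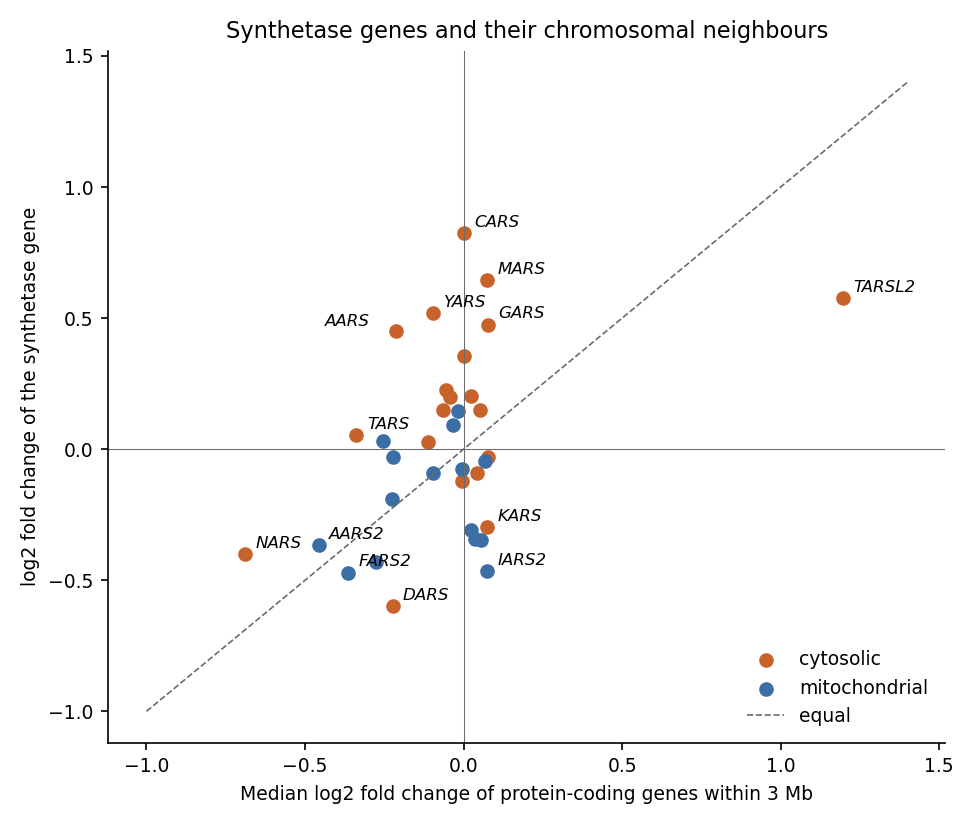
The y axis gives the log2 fold change of each synthetase gene and the x axis the median log2 fold change of the protein-coding genes within 3 Mb, with the dashed line where the values are equal. TARSL2 (1.20 on the x axis) and NARS (-0.69) lie at the ends, and CARS and MARS stand high above neighbours close to 0.

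Finally, the other genes of the pathway were examined. In mitochondria, glutamine tRNA is charged by way of glutamate and an amidotransferase, and methionine tRNA is formylated for initiation. All 4 genes of these steps had a lower FPKM in LM2, with log2 fold changes of -0.56 for GATC, -0.32 for QRSL1, -0.27 for PET112 and -0.26 for MTFMT, and none was called. Of 76 entries for mitochondrial ribosomal proteins, in which MRPS17 stands 2 times, 63 were lower, with a median of -0.22. Thus 17.1% were higher by any amount, beside 45.5% of all genes tested. Called lower were 3 (MRPS33, MRPS2 and MRPL41), a share no greater than the 4.61% called lower among all genes tested. Nothing was called among 21 entries for tRNA maturation and export, with 10 higher and 11 lower and a median of -0.23. XPOT, the exporter of tRNA from the nucleus, was at 36.0 and 49.9 FPKM, a log2 fold change of 0.46, and RPP40, a subunit of the enzyme that trims the 5′ end of tRNA, was at 22.2 and 11.9 FPKM (-0.85).

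RNA polymerase III transcribes the tRNA genes, and for its 21 subunit and factor genes the median log2 fold change was -0.02, with none called. The highest were POLR3A (0.67) and POLR3G (0.58), and MAF1, its repressor, was at -0.55. Of the 6 genes tested for delivery of charged tRNA to the ribosome, 2 were higher (EEF1G and EEF1B2) and 4 lower, and the gene of the main delivery factor, EEF1A1, was listed at 0 without the status OK in both lines and was not tested. Among the proofreading genes, AARSD1 (0.08), DTD1 (-0.15) and DTD2 (-0.52), none was called.

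**Figure D5:**
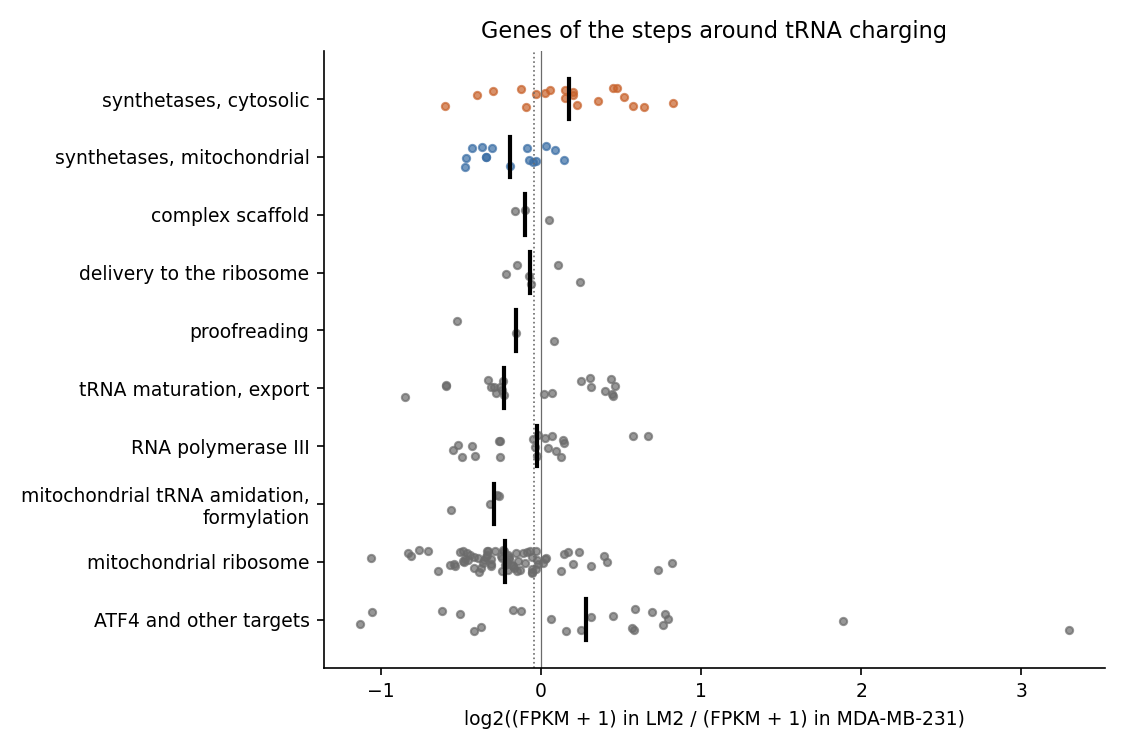
Each point is a gene, placed by its log2 fold change of FPKM + 1 from MDA-MB-231 to LM2, and grouped by its step in tRNA charging, with a black bar at the median of the group and a dotted line at the median of all genes tested (-0.04). The medians of the mitochondrial groups lie between -0.29 and -0.19, and those of the cytosolic synthetases and of ATF4 and its other targets at 0.18 and 0.28.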

How the data were processed

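Each of the cell lines was measured by RNA-Seq of 2 libraries. The authors aligned paired reads to hg19 with TopHat 2.0, quantified GENCODE 19 genes with Cufflinks, and deposited 1 FPKM per gene and cell line with 2 bounds. The TruSeq kit named does not mark strand, and TopHat was run with its defaults. How libraries were scaled to each other is not given in the sources used here. The table gives no fragment counts, so precision was read from the bounds, which cover an unstated part of the error.

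Samples were grouped by their titles. Log2 ratios of FPKM + 1 were computed for genes with status OK and a mean of at least 0.5 FPKM, and called at 1.5-fold with bounds that did not overlap. limma had been foreseen if values per library existed, and could not be run on 1 value per cell line. The calling step was tested on simulated data. Every synthetase gene is named, and of each further list at most 5 genes, called ones first and then by size of change, with the others named after their values were seen. The genes and all lists, written from general knowledge, were chosen with earlier results of these data known. Positions and exon overlaps come from GENCODE 44 on GRCh37, matched by Ensembl ID, and promoters from RefSeq, matched by current symbol. Python 3.11.15, NumPy 2.4.6, pandas 2.3.3 and Matplotlib 3.10.9 were used. Alternatives covered the pseudocount, the filter, the fold, the bounds, 3 scalings and the neighbours.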

Additional observations from a re-analysis of the deposited data

How the results depend on the processing

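No paired analysis was possible because the table holds 1 pooled value per cell line, and for the same reason leaving out each replicate was not run. The difference between the cytosolic and mitochondrial medians stayed between 0.30 and 0.40 under every alternative tried. Leaving out GARS and KARS, which lie on either side of the cytosolic median, could not move it. With a fold of 2, 0 cytosolic genes were called higher, and with the fold of 1.5 alone 2 were called higher and 1 lower. Scaling to the same sum moved the cytosolic median from 0.18 to 0.26 and the mitochondrial one from -0.19 to -0.11, and quantile normalization moved them to 0.30 and -0.10. The mitochondrial median was -0.25 at a mean of at least 5 FPKM and -0.071 with neighbours subtracted. Signs of small changes turned in QARS, PARS2 and RARS2 when scaled to the same sum, in QARS and PARS2 when centred on the median of all genes, and in QARS, RARS, RARS2 and MARS2 after quantile normalization. Subtracting the neighbours turned the sign of 6 genes (NARS, TARSL2, AARS2, CARS2, PARS2 and TARS2). Under a window of 1 Mb in place of 3 Mb the neighbours' median kept its sign for 28 of 35 genes. CARS was called under every alternative but the fold of 2. No pseudocount or filter tried changed a call among the synthetases. Over all genes, 649 were called higher and 641 lower, against 450 and 403 with a fold of 2, 321 and 443 at a mean of at least 5 FPKM, and 1434 and 1640 with the fold alone.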
